A study of Homo sapiens with 8 samples.

Results

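ID1 and ID3 are a pair of paralogous genes of the inhibitor of DNA binding family. They are 2 of the 187 genes in the deposited table of NCI-H295R cells deprived of serum. Both were found by gene name. The table had been selected on the comparison described here, so the difference between the groups is given for ID1 and ID3 as a description, without a test. The members and the gene lists were chosen with earlier results of these data known.

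The 8 libraries of polyadenylated RNA came from NCI-H295R, an established human adrenocortical carcinoma line that makes adrenal steroids. In 4 libraries the cells had been kept without NU-I serum and without ITS, the supplement of insulin, transferrin and selenium. The 4 control libraries came from cells in the complete medium, which held both in DMEM-F12. All libraries share the single cell line, and the labels do not state whether replicates were separate cultures, so the spread between them may be technical. Of the 19 adrenocortical markers listed, 4 were tabulated (HSD3B2, MRAP, INHA and DLK1), while the others, and the lists for endothelium, fibroblasts and leukocytes, were not analysed here.

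ID proteins have a helix-loop-helix region but lack the basic region that touches DNA. They pair with the E proteins TCF3, TCF4 and TCF12 and keep these transcription factors from binding DNA. Bone morphogenetic proteins (BMPs) bind surface receptors that phosphorylate SMAD1 and SMAD5, which enter the nucleus with SMAD4 and switch on ID1 and ID3. Serum also induces both genes in many cultured cells.

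ID1 (ENSG00000125968) lies on the plus strand of chromosome 20 from 31605283 to 31606515 (GRCh38, GENCODE release 29). It has coding transcripts of 1233 bases in 1 exon and of 994 bases in 2 exons. ID3 (ENSG00000117318) lies on the minus strand of chromosome 1 from 23557918 to 23559794, with a coding transcript of 1251 bases in 3 exons and non-coding transcripts of 623 and 892 bases. Neither locus overlaps another annotated gene. Although the genes are paralogs, the 1230 distinct stretches of 31 bases in the ID1 transcripts and the 1764 in those of ID3 had 0 in common. None of them occurred in transcripts of another gene among the 206694 searched, on either strand.

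The sequence just upstream of each gene is shown because it is a feature that the choice of the genes did not use. In RefSeq's promoter windows (GRCh38.p14, 250 bases before to 50 after the start), both genes have a TATA element, the letters TATAA, whose first base lies 31 bases before the start of ID1 and 29 before that of ID3. These letters were found, at any place and on either strand, in 20.4% of 35116 such windows, a share not limited to these distances. Each is printed 5′ to 3′ on the gene's strand with TATAA in capitals, from chr20:31605246-31605275 for ID1 and chr1:23559513-23559542 for ID3.
ID1: ccgtggcgtgttTATAAaagacaagctgtg
ID3: ccaggcaggctcTATAAgtgaccgccgcgg

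GENCODE starts ID3 293 bases further upstream than RefSeq, so in its annotation the whole ID3 window is exonic. For ID1 the starts differ by 6 bases. The ID1 window is shown up to the base before the GENCODE start, chr20:31605039-31605282, with the searched motifs in capitals.
ID1: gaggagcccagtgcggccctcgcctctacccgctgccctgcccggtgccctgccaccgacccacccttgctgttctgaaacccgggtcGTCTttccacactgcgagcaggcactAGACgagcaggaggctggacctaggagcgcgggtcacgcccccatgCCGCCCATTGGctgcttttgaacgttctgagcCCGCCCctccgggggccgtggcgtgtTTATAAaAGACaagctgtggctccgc

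The motifs were read on both strands, so capitals may show the reverse complement, and neighbouring matches may overlap. GTCT, the short element that SMAD proteins bind, had 3 matches in the ID1 window and 2 in that of ID3, and 84.0% of all windows hold it. GGCGCC, a GC-rich element of BMP response, had 0 matches in either window and occurs in 19.2% of all. GGGCGG, the GC box, had 2 matches in ID1 and 0 in ID3 (44.95% of all windows), and CCAAT, the CCAAT box, had 1 match in ID1 and 0 in ID3 (34.6%). TGACG, a part of the cyclic AMP response element, had 0 matches in ID1 and 1 in ID3 (24.6%). GTGGGCG, the core of sites for EGR factors, had 0 in either (9.52%), and CCATNTT, the core of YY1 sites, had 1 in each (15.6%). These matches describe letters and do not show binding. Only the 300 bases of each window were searched, so a count of 0 says nothing on sequence further from the start.

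ID1 was lower in every serum-deprived library than in any control library. Its estimated counts were 27.0, 42.0, 51.0 and 55.0 in serum-deprived replicates 1 to 4, against 103, 100, 109 and 113 in control replicates 1 to 4. Divided by size factors that put the libraries on 1 scale, these became 31.8, 42.6, 47.4 and 65.0 scaled counts in serum-deprived cells, against 103, 82.4, 94.99 and 119 in controls. The groups did not overlap on either scale, and serum-deprived replicate 1 was the lowest of all.

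The mean of ID1 was 46.7 ± 13.8 scaled counts in serum-deprived cells and 100.02 ± 15.4 in controls (SD, n = 4 each). This is 2.14-fold lower, with a log2 fold change of -1.10 ± 0.23 (SE derived from the F statistic of edgeR, fitted to all 187 genes without pairing). The SE is the absolute log2 fold change divided by the square root of F. In such bulk libraries, fewer cells expressing a gene and less RNA per cell cannot be told apart.

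ID3 was also lower in serum-deprived cells, and its groups nearly touched on the scaled counts. Its fold change was smaller than that of ID1, a difference that did not pass the test given below. Its estimated counts were 72, 84.5, 108 and 94.5 in serum-deprived replicates 1 to 4, against 189, 138, 179 and 184 in controls. The scaled counts were 84.9, 85.7, 100.4 and 112 in serum-deprived cells, against 189.8, 114, 156 and 194 in controls. Control replicate 2 stood low, just above the highest serum-deprived library.

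The mean of ID3 was 95.7 ± 12.8 scaled counts in serum-deprived cells and 163 ± 37.2 in controls (SD, n = 4 each). That is 1.70-fold lower, with a log2 fold change of -0.77 ± 0.20 (SE derived in the same way, edgeR). Size factors taken as medians of ratios over the whole table brought the groups into overlap, with 118 in the highest serum-deprived library and 108 in control replicate 2. The same scale left ID1 apart, at no more than 68.6 in serum-deprived cells and no less than 78.5 in controls. All serum-deprived scaled counts were below all control ones in 40.1% of the 187 genes, a share that follows from how the table was selected. Nothing is read from the 2 members against it.

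**Figure D1:**
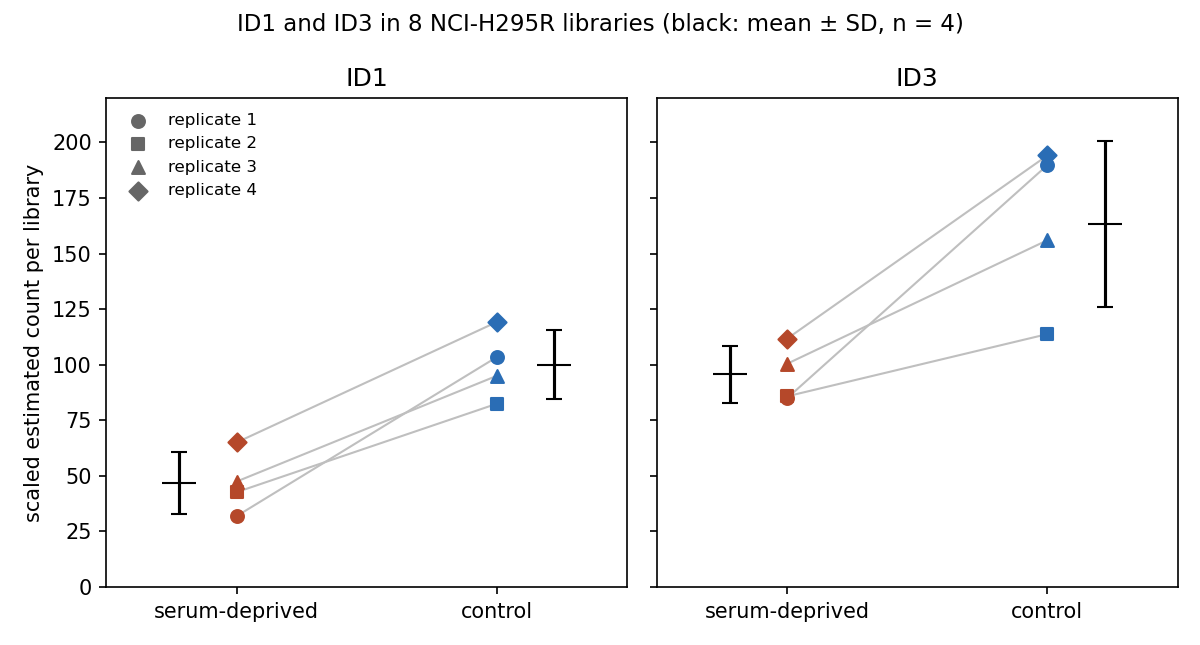
Scaled estimated counts (vertical axis) of ID1 and ID3 in serum-deprived and control libraries, with a symbol for each replicate number, grey lines joining equal numbers and black bars for mean ± SD (n = 4 per group). ID1 lies between 31.8 and 65.0 in serum-deprived and between 82.4 and 119 in control libraries, and for ID3 control replicate 2 (114) lies next to the highest serum-deprived library (112).

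Taken by replicate number, both genes were lower in the serum-deprived library of all 4 pairs. ID1 had log2 ratios of -1.70, -0.95, -1.003 and -0.88 in pairs 1 to 4, serum-deprived over control. ID3 had -1.16, -0.41, -0.64 and -0.80. The pair of replicate 1 gave the greatest difference for both genes, with ID1 at 30.8% and ID3 at 44.7% of the control value. In the other pairs ID1 was at 49.9% to 54.5% and ID3 at 57.5% to 75.4%.

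The replicate 1 libraries stood apart from the rest of their groups, with Spearman correlations across genes of 0.919 to 0.927 with the other serum-deprived libraries and 0.947 to 0.950 with the other controls. Libraries 2 to 4 correlated with each other at 0.969 to 0.979 in serum-deprived cells and 0.977 to 0.987 in controls. Replicates 2 to 4 alone gave ID1 means of 51.7 in serum-deprived cells and 98.9 in controls, 1.91-fold lower. For ID3 they gave 99.3 in serum-deprived cells and 155 in controls, 1.56-fold lower.

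Pair 1 is a reading that the authors' fold changes seem not to have used. Across the table, ratios of mean counts of replicates 2 to 4 differed from the fold changes in the authors' deposited table by a nearly constant amount, with an SD of 0.0143 on the log2 scale, against 0.188 with all 8 libraries. In pair 1, ID1 had the 12th and ID3 the 23rd largest fall among the 94 genes listed as lower, against the 37th and the 91st place in replicates 2 to 4. Of these 94 genes, 33 (35.1%) had a larger fall in pair 1 than in replicates 2 to 4, and their median log2 ratio was -0.72 in pair 1 and -0.89 in replicates 2 to 4. With 1 library per group, pair 1 has no replicate check. The places in replicates 2 to 4 seem to follow the values on which the table was selected. ID3, in place 91 of 94, had little room to move except upward. Nothing is therefore read from the change of places.

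**Figure D2:**
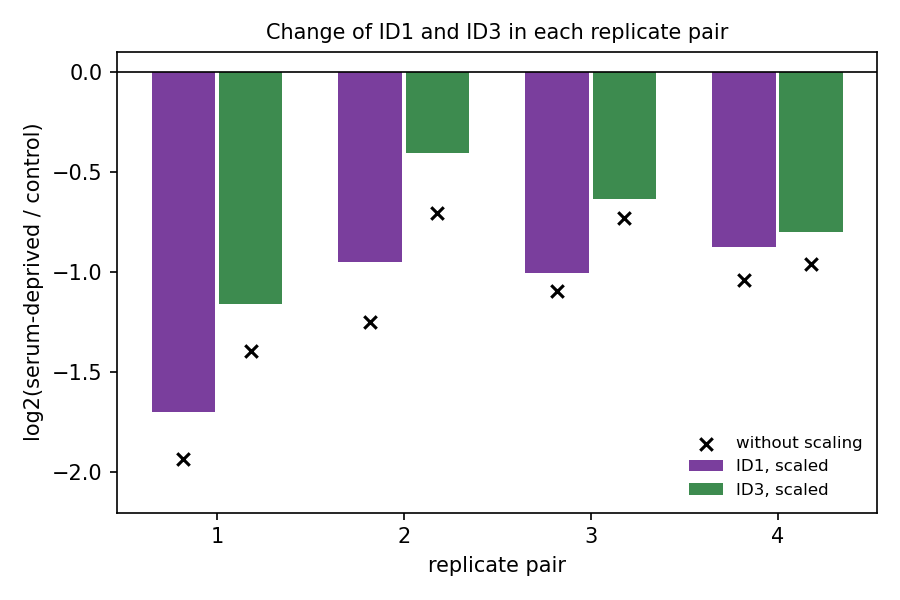
Log2 ratio of serum-deprived over control (vertical axis) in each of the 4 replicate pairs, with bars for scaled values of ID1 and ID3 and crosses for the same ratio without scaling. Both genes are below 0 in all 4 pairs, and pair 1 is the lowest for each, at -1.70 for ID1 and -1.16 for ID3.

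For ID1 the authors' deposited table lists a log2 fold change of -0.90 (FDR 0.00911). For ID3 the authors' deposited table lists -0.59 (FDR 0.0924). By size of fall ID1 was in place 36 of 94 and ID3 in place 92. In the authors' deposited table only SQOR (-0.58) and FLYWCH2 had smaller falls than ID3, and DLK1 (-0.59) stood directly before it. ID1 stood between CD160 (-0.90) and SLC51A (-0.88). ID3 was therefore just inside the table's limits of a 1.5-fold change and an FDR of 0.1, with 4 genes at a higher FDR, whereas 75 had a higher FDR than ID1.

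**Figure D3:**
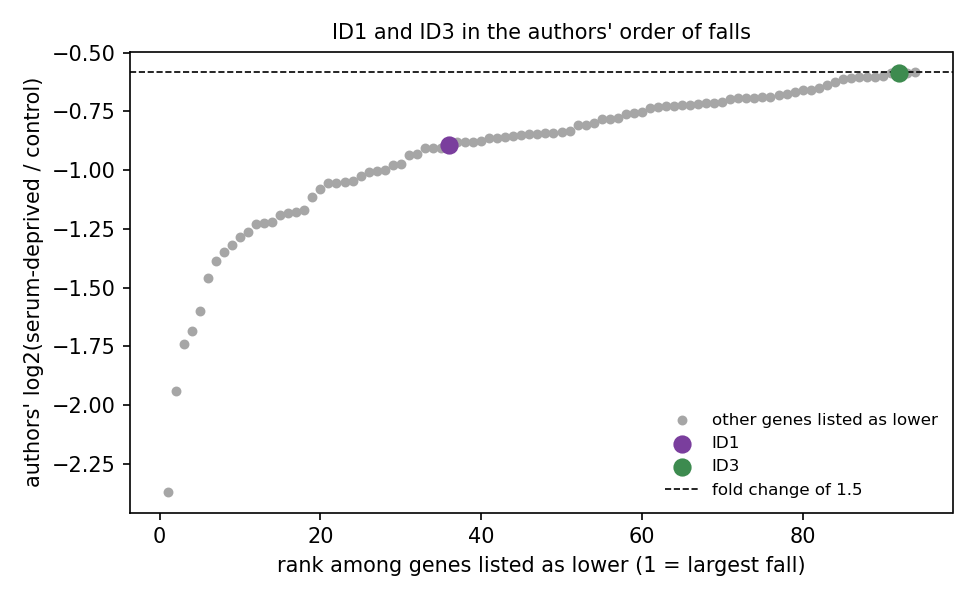
Log2 fold changes from the authors' deposited table (vertical axis) for the 94 genes listed as lower, by rank from the largest fall, with ID1 and ID3 marked and a dashed line at a fold change of 1.5. ID1 is at rank 36 and ID3 at rank 92, next to the line.

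Whether the paralogs differed in the size of their change was tested on the ratio of their counts within each library, which needs no scale between libraries. ID1 was 0.375, 0.497, 0.472 and 0.582 times ID3 in serum-deprived replicates 1 to 4, against 0.545, 0.725, 0.609 and 0.614 in control replicates 1 to 4. The groups overlapped, since serum-deprived replicate 4 was above control replicate 1.

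The log2 ratio of ID1 to ID3 was -1.06 ± 0.26 in serum-deprived cells and -0.69 ± 0.17 in controls (SD, n = 4 each). The difference was -0.37, with a 95% interval from -0.94 to 0.09 by inversion of the exact permutation test. It did not pass the threshold of 0.05 (exact permutation test over 70 assignments, two-sided, p = 0.0571, where the smallest possible p is 0.0286). The ratio was lower in the serum-deprived library of 4 of 4 pairs, with differences of -0.53, -0.54, -0.36 and -0.07 on the log2 scale in pairs 1 to 4. An exact sign-flip test of these pairs gave p = 0.125, the smallest it can give. A larger fall of ID1 than of ID3 was thus not shown, nor was an equal one.

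Few reads underlie each ratio. ID1 and ID3 together had 99 to 159 counts in serum-deprived and 238 to 297 in control libraries. ID1 made up 27.3% of them in serum-deprived replicate 1 (exact 95% binomial interval 18.8 to 37.1%), against 35.3% (29.8 to 41.1%) in control replicate 1. The intervals of these 2 libraries overlap. Such intervals cover counting error only.

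**Figure D4:**
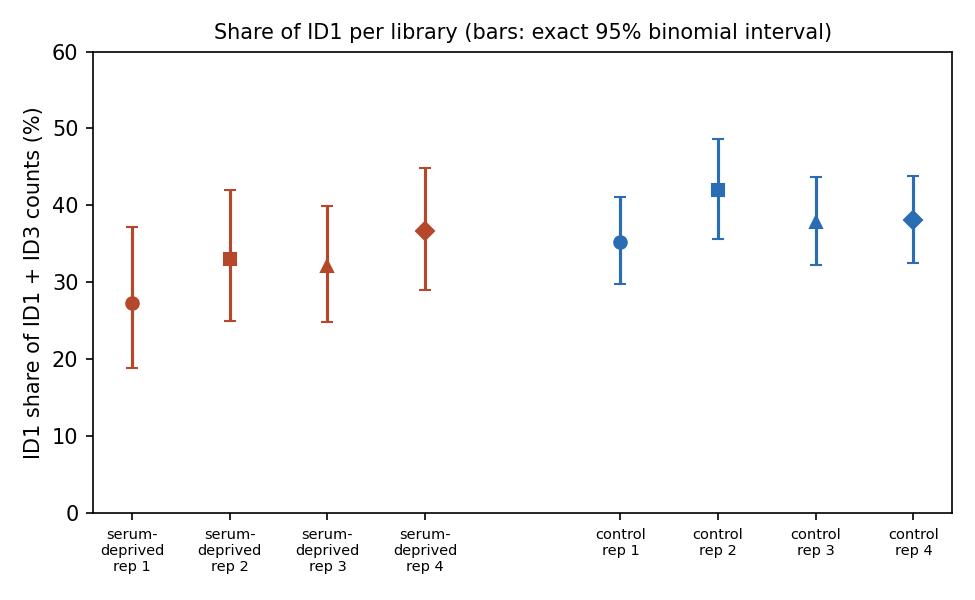
Share of ID1 among the counts of ID1 and ID3 in percent (vertical axis) in each library, with exact 95% binomial intervals. Serum-deprived libraries lie between 27.3% and 36.7% and control libraries between 35.3% and 42.0%, with intervals that overlap.

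ID3 was the more abundant of the pair in 8 of 8 libraries. Per kilobase of its coding transcript of 1251 bases, ID3 had 76.5 ± 10.2 scaled counts in serum-deprived cells and 131 ± 29.8 in controls (SD, n = 4 each). ID1 had 37.9 ± 11.2 in serum-deprived cells and 81.1 ± 12.5 in controls on its transcript of 1233 bases, or 47.0 ± 13.9 in serum-deprived cells and 100.6 ± 15.5 in controls on that of 994 bases. The level of ID3 per kilobase was thus 2.10 ± 0.39 times that of ID1 in serum-deprived cells and 1.60 ± 0.18 times in controls with the longer ID1 transcript. With the shorter one it was 1.69 ± 0.32 times in serum-deprived cells and 1.29 ± 0.15 times in controls. Which transcripts of either gene the reads came from is not given in the table, and reads from the shorter non-coding ID3 transcripts would change these levels per length. Among 187 genes ordered by mean count, ID3 (131) took place 95 and ID1 (75.0) place 130.

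On the scaled counts, though not without scaling, ID1 and ID3 ranked the libraries of each group alike. Replicate 4 was highest for both genes in both groups. Serum-deprived cells followed with replicates 3, 2 and 1, and controls with replicates 1, 3 and 2. Some of these places rest on differences within counting error, such as 84.9 against 85.7 for ID3 in serum-deprived replicates 1 and 2. The order of ID1 was found in 20 genes (10.7%) in serum-deprived cells and in 7 (3.74%) in controls, ID1 and ID3 included. Besides the pair themselves, 1 of the 187 genes, ACSBG1, had this order in both groups. It was singled out after its values were seen. Dividing both genes by the same size factor moves them together, and without scaling the order differed between ID1 and ID3 in each group. With 4 libraries per group and groups that stand apart, no correlation between the genes was computed.

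The spread of the scaled counts, set against counting noise, varied between genes and groups. For ID1 the chi-square per degree of freedom around the group mean was 3.49 in serum-deprived and 2.56 in control libraries, where counting noise alone gives about 1 and values scatter widely with 4 libraries. For ID3 it was 1.52 in serum-deprived and 9.57 in control libraries. Without the size factors ID3 had 2.59 in serum-deprived and 3.16 in control libraries, so the value of 9.57 depends on them. Before scaling, ID1 in controls had a value of 0.322, with a coefficient of variation of 5.51%, below the 9.70% that counting alone gives. After scaling, the coefficient of variation of ID1 in controls was 15.4%.

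Likeness to other genes was measured as the SD over the 8 libraries of the log2 ratio of their counts, which also needs no scaling, among 183 other genes with a mean count of at least 30. ID3 was the 5th nearest gene to ID1 (SD 0.28), after RANBP3L (0.20), SPP1 (0.23), FCN1 (0.26) and CFI (0.26). The median SD against ID1 was 0.83. ID1 was the 9th nearest gene to ID3, for which HRH1 (0.19), SPP1 (0.19), CFI (0.25), C1QL4 (0.26) and ABCG1 (0.26) came first and the median was 0.69. These SDs include the difference between the groups. They also include counting error, which is larger for genes with few counts. The mean counts were 1606 for SPP1 and 1640 for CFI, against 131 for ID3 and 75.0 for ID1. The part due to counting error was not computed, so places with close SDs are not told apart. Only 94 of the 187 genes were listed as lower, and the others were listed as higher. A gene listed as lower thus tends to lie nearer than these medians, and a small SD does not by itself show covariation within a group.

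SPP1 (osteopontin, a secreted phosphoprotein) and CFI (complement factor I, a protease of the complement system) were thus near both members. SPP1 had 1118 ± 180 scaled counts in serum-deprived cells and 2020 ± 192 in controls, and CFI had 1081 ± 84.6 in serum-deprived cells and 2117 ± 232 in controls (SD, n = 4 each). In pair 1 their log2 ratios were -1.27 and -1.31, between those of ID3 and ID1. All these genes share the libraries and the selection for a change. Without replicate 1 of both groups, 0 of the 5 genes nearest to ID1 and 3 of the 5 nearest to ID3 were retained, so the neighbours of ID1 rest on replicate 1. CFI was then among the 5 nearest of neither member, and SPP1 among those of ID3 alone. The place of the members to each other also moved with the settings. ID3 was the 9th nearest gene to ID1 and ID1 the 8th nearest to ID3 without replicate 1, and with a pseudocount of 5 these places were 5 and 3.

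Of 80 genes listed for BMP and TGF-beta signalling, 1 was tabulated, the ligand subunit INHA (inhibin alpha, which opposes activin). It passed as lower (1 of 1, with 0 as higher), in a table selected on this comparison of which 48.1% of genes passed as lower, and nothing is read from the count. It had 185 ± 16.4 scaled counts in serum-deprived cells and 315 ± 19.0 in controls (SD, n = 4 each). Genes for BMP ligands and receptors, SMADs, BMP antagonists, other targets, the relatives ID2 and ID4, the E proteins and the listed cell cycle inhibitors were not analysed here. BMP activity itself was not measured.

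Of 36 serum response and immediate early genes, 3 were tabulated, and 3 of 3 passed as lower (edgeR quasi-likelihood test, adjusted p of 0.00334 for EGR1, 0.00526 for ETV4 and 0.0104 for JUNB). INHA had an adjusted p of 0.00101 in the same edgeR fit. The share of 48.1% over the whole table applies here too, and these genes were selected on the same libraries. Of the 94 genes with a negative log2 fold change in this fit, 90 passed as lower, so nothing is read from the 3 of 3. JUNB, a subunit of AP-1, missed the threshold when scaled by median-of-ratios size factors (adjusted p = 0.0569 in edgeR).

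EGR1, a zinc finger factor induced by growth factors, was nearly level in the pair where the ID genes differed most. Its log2 ratio was 0.03 in pair 1, where ID1 had -1.70 and ID3 -1.16. The estimated counts of EGR1 in that pair were 191 in serum-deprived cells and 219 in controls. In pairs 2 to 4 it had 115, 110 and 126 scaled counts in serum-deprived cells, against 490.5, 347 and 371 in controls, a larger difference than that of ID1 in each of these pairs. Its log2 fold change was -1.31 over all 8 libraries and -1.79 without replicate 1 of both groups (edgeR). It was the 83rd nearest gene to ID1 (SD 0.68) and the 99th nearest to ID3 (SD 0.71). ETV4, an ETS factor downstream of ERK, had a log2 ratio of -0.99 in pair 1 and JUNB -0.22. INHA was the 7th nearest gene to ID3 (SD 0.28) and the 29th nearest to ID1 (SD 0.42).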

How the data were processed

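Per the labels' protocols, libraries were stranded and read from 1 end over 76 bases. The authors' deposited data are 1 table of estimated counts for 187 genes and 8 libraries, with a log2 fold change and an FDR (adjusted p-value) that are printed only as the authors' deposited values. The build was GRCh38 and the tools were cutadapt, FastQC, kallisto and edgeR, per the submitters' processing notes, with versions not given in the sources used here. Table totals were 262373 to 359195 counts. They hold only selected genes, so depth is unknown. Columns were matched to samples by medium and replicate number, and there were 0 columns of other samples.

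Size factors (0.846 to 1.21) were medians of ratios within a group (pseudocount 0.5), and the groups were aligned by centring on 0 the widest gap in the genes' log2 ratios, from -0.41 to 0.02 (at least 20 genes on each side). Rounded counts were fitted with edgeR 4.0.16 in R 4.3.3 (quasi-likelihood F test, two-sided, Benjamini-Hochberg over 187 genes, threshold 0.05), checked on simulated tables. DESeq2 1.42.0 and limma 3.58.1 (voom) were alternatives. The remaining steps used Python 3.11.15 with scipy 1.17.1. Libraries of a group were no duplicates (chi-square per degree of freedom 4.27 to 63.7).

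Same-numbered libraries deviated together (correlations across genes of 0.215, 0.376, 0.110 and 0.123 for numbers 1 to 4), so the numbers were taken to pair them. ID1 counts lay within 0.01 of whole numbers in all 8 libraries. ID3 had 84.5 and 94.5 in serum-deprived replicates 2 and 4. Since ID3 shared no stretch of 31 bases with other genes in GENCODE release 29, and neither the authors' stretch length nor their transcript set is stated, why these are not whole was not tested. Named besides ID1 and ID3 were the tabulated genes of the BMP, ID, serum response and cell cycle lists, the 5 genes nearest to each member in pattern and the neighbours in order of the authors' fold changes. Members and lists were chosen with earlier results of these data known.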

Additional observations from a re-analysis of the deposited data

How the results depend on the processing

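The log2 fold change of ID1 was between -1.28 and -0.94 and that of ID3 between -0.94 and -0.62 over the other scalings, tools and filters and without replicate 1 of both groups. With each library omitted in turn they were -1.29 to -0.96 for ID1 and -0.91 to -0.67 for ID3. Each moved by less than the spread between libraries. The difference between the paralogs in log2 ratio was -0.47 to -0.26 with each library omitted in turn, and -0.38 and -0.32 with pseudocounts of 0 and 5 (exact permutation p = 0.0571 for both). Omitting a library, omitting replicate 1 of both groups and pairing by number cannot give an exact p below 0.0571, 0.1 and 0.125, so these say nothing on whether the call is stable. With a replicate block in edgeR, the log2 fold changes were -1.11 for ID1 and -0.75 for ID3, and 162 genes passed, against 159 without it. A minimum mean count of 100 left 107 genes, of which 91 passed, fewer because fewer were tested, and removed ID1. Omitting each library in turn gave 133 to 173 genes past the threshold. Without replicate 1 of both groups, 187 of 187 genes passed (93 as higher, 94 as lower). The table seems to have been selected on the libraries that remained, so nothing is read from that count. Without scaling 21 genes passed as higher and 91 as lower, with median-of-ratios size factors 80 as higher and 75 as lower, in DESeq2 82 as higher and 77 as lower, and with the scaling used here 69 as higher and 90 as lower. Relative to it, the median log2 fold change moved by -0.20 without scaling, 0.14 with median-of-ratios size factors and 0.15 in DESeq2. A shift from the authors' fold changes, added after the data were seen, gave -1.06 for ID1 and -0.73 for ID3. The counts of 27 to 189 per library limit the precision of every value, and depth is unknown.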
